A study of Mus musculus with 6 samples.

Results

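The complement components and receptors described here are 9 genes of the mouse, C1qa, C1qb, C1qc, C3, Cfb, Cfp, C3ar1, C5ar1 and Serping1, taken by symbol from a count table that lists 55254 gene symbols. For each gene the counts of a transcript's listed segments were added up, and the transcript with most normalised counts on average stood for the gene. All 9 had counts and all 9 passed the filter on low counts, although Serping1 passed it only through control replicate 3. The cells were bone marrow-derived macrophages (BMDMs), grown from the marrow of mice 6 to 8 weeks old for 10 days in medium conditioned by L929 cells. The 3 control libraries came from hnRNPD fl/fl mice, in which loxP sites flank exons 3 and 4 of hnRNPD. The 3 M-Δx3,4 libraries came from LysMCre+ hnRNPD fl/fl mice, in which Cre recombinase removes those exons. Cre is made there from the lysozyme M (Lyz2) locus, so the deletion is directed to the myeloid lineage. The study found AUF1 protein reduced in BMDMs, peritoneal macrophages and polymorphonuclear cells, but not in peritoneal eosinophils. Other cell types in a culture may keep the gene, which was not measured here. hnRNPD encodes AUF1, an RNA-binding protein that recognises AU-rich elements in the 3′ untranslated regions (UTRs) of mRNAs. All 6 cultures had received lipopolysaccharide (LPS), a bacterial cell wall product, at 100 ng/ml for 4 h, so no unstimulated level is available for any of the 9 genes. The comparison asks whether loss of AUF1 in LPS-activated macrophages altered the mRNAs of the complement system.

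Complement is a cascade of plasma and tissue proteins that tags microbes and dying cells, recruits leukocytes and can form pores in membranes. C1q, assembled from the C1qa, C1qb and C1qc chains, starts the classical pathway. C3 is the central component, Cfb (factor B) supplies the protease of the alternative pathway convertase and Cfp (properdin) stabilises that convertase. C3ar1 and C5ar1 are the receptors through which the cleavage fragments C3a and C5a act on leukocytes, and Serping1 encodes C1 inhibitor, which blocks the proteases bound to C1q. Liver cells make most plasma complement, whereas macrophages are a major source of C1q and leukocytes of properdin.

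The libraries held 5852374 to 6666525 counts in the control group and 6627536 to 9008878 in the M-Δx3,4 group, and a read under several overlapping transcripts was counted for each of them. The Hnrnpd transcript ENSMUST00000072750, of the targeted gene, stood at 177.8, 104.2 and 69.6 normalised counts in control BMDMs. It stood at 52.8, 12.6 and 16.0 in M-Δx3,4 BMDMs, with no overlap. Its log2 fold change was −2.11, with an unadjusted p under 0.05 (edgeR adjusted p = 0.984, exact permutation p = 0.1). An adjusted p under 0.05 was thus not reached even by this transcript of the deleted gene. All 12 macrophage markers, led by Fcer1g and Ctss, were detected in every library, and 5 of the 12 had a log2 fold change above 0. Their summed level was 14049 to 16472 normalised counts in the control group and 12066 to 13798 in the M-Δx3,4 group. Without Lyz2, the locus that carries Cre, left out after its values were seen, the sums were 12261 to 14271 and 11184 to 12721, which overlapped. Control replicate 3 stood apart from the other libraries. Over 4723 genes with a mean above 50 normalised counts, Pearson's r of its log2 levels with each other library was 0.764 to 0.895. Pairs without it had 0.904 to 0.971. It also stood apart in its liver transcripts, with counts for 19 of 20 liver markers. Controls 1 and 2 had counts for 2 and 4, and M-Δx3,4 replicates 1, 2 and 3 for 4, 2 and 3. Summed, the liver markers reached 160.4 to 1251 normalised counts in the control group and 144.8 to 293.5 in the M-Δx3,4 group. Of the list's most abundant genes, Cyp2e1 had 293.5 normalised counts in control replicate 3 and 15.3 to 32.9 elsewhere, whereas Serpina1a had 65.0 there and 118.4 to 311.5 elsewhere. Albumin, named after its values were seen, had 264.5 normalised counts in control replicate 3, none in controls 1 and 2 and 1.0, 0 and 1.5 with the deletion. The fold changes of C3 and Cfb, which the liver also makes, are therefore given with and without that library, and Serping1 by its counts alone. Nothing in the labels states that the replicates came from separate mice or cultures, so the p-values measure the spread between these samples, which may be technical. Fewer cells of a type and less RNA per cell cannot be told apart in such bulk samples.

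None of the 9 complement genes was called as changed between control and M-Δx3,4 BMDMs by the test used. With edgeR's quasi-likelihood test over 32475 transcripts, 0 of 9 were called, that is, had an unadjusted p under 0.05 together with a log2 fold change of at least 1 in either direction, against 3.07% of the 11875 genes tested. At an unadjusted p under 0.05 alone, 0 of 9 passed, against 3.98% of genes, and DESeq2 and limma-voom also gave 0. At an adjusted p under 0.05 (Benjamini-Hochberg), 0 of 9 passed, as did 0% of genes. The control and M-Δx3,4 libraries overlapped for all 9, while 8.44% of genes had groups that did not overlap. Apart from Serping1, which passed the filter only through control replicate 3, the log2 fold change of M-Δx3,4 over control was below 0 for 7 of 8 members, against 50.5% of genes. Their median was −0.45, beside −0.01 over all genes tested. The members were measured in the same libraries and are not independent observations.

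**Figure D1:**
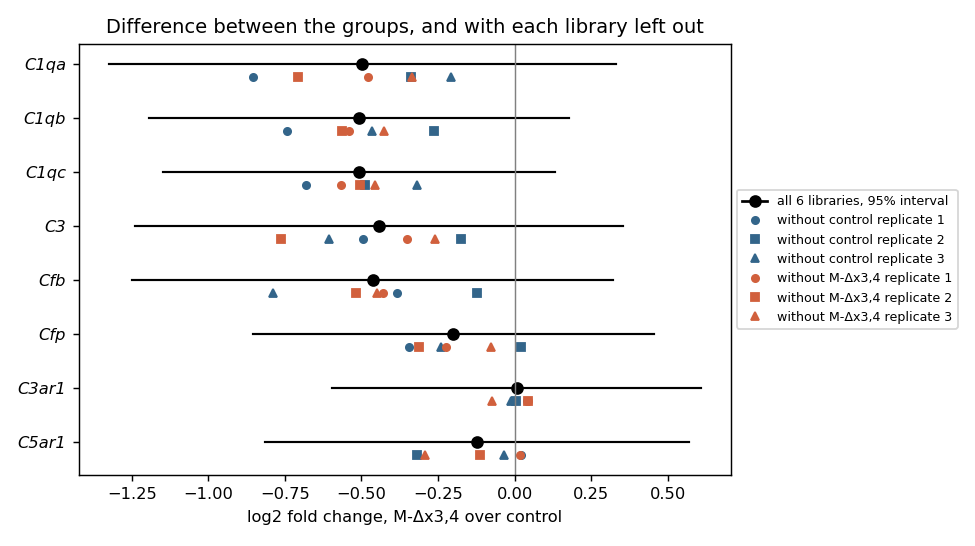
Log2 fold change of M-Δx3,4 over control BMDMs for 8 complement genes, with 95% confidence intervals from edgeR's quasi-likelihood fit on 3 libraries a group (black), and the values with each library left out (coloured points); Serping1, at or near the counting floor, is not drawn. Every interval includes 0, and with all 6 libraries the C1q chains lie lowest at −0.50 to −0.51, while without control replicate 3 Cfb and C3 lie lowest at −0.79 and −0.61.

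With all 6 libraries the C1q chains had the lowest fold changes of the set apart from Serping1, although without control replicate 3 Cfb (−0.79) and C3 (−0.61) lay below them. Control replicate 1 lay low for all 3 of them. C1qa (ENSMUST00000046285; mm10 chr4:136895668-136896153, minus strand), which encodes the A chain, had 989.1, 2724 and 3037 normalised counts in control replicates 1, 2 and 3, and 1547, 2022 and 1211 in M-Δx3,4 replicates 1, 2 and 3. Control replicate 1 was the lowest of all 6 libraries and the other control libraries were the highest, so that all M-Δx3,4 values lay within the control range. The group means were 2250 ± 1103 and 1593 ± 407 (SD, n = 3 each). Its log2 fold change was −0.50 ± 0.39 (SE), with a 95% interval of −1.33 to 0.33 (edgeR p = 0.219, adjusted p = 0.984; two-sided exact permutation p = 0.4, where the smallest possible p with 3 against 3 is 0.1).

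C1qb (ENSMUST00000046384; chr4:136879880-136880288, minus strand), the B chain, had 1266, 2573 and 2041 normalised counts across controls 1 to 3 and 1435, 1482 and 1218 across M-Δx3,4 1 to 3. The M-Δx3,4 libraries were close to each other, and control replicate 1 lay among them. The M-Δx3,4 over control log2 fold change was −0.51 ± 0.32 (SE), with a 95% interval of −1.19 to 0.18 (edgeR p = 0.135, adjusted p = 0.984; exact permutation p = 0.3). C1qc (ENSMUST00000046332; chr4:136889555-136890042, minus strand), the C chain, had 1754, 2422 and 2909 normalised counts in the controls, while M-Δx3,4 BMDMs had 1791, 1653 and 1538. Control replicates 2 and 3 were above every M-Δx3,4 library, and control replicate 1 was below M-Δx3,4 replicate 1. On the log2 scale the fold change was −0.51 ± 0.30 (SE), with a 95% interval of −1.15 to 0.13 (edgeR p = 0.111, adjusted p = 0.984; exact permutation p = 0.2).

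The C1q values moved when single control libraries were left out. Without control replicate 1 the log2 fold changes became −0.85 for C1qa, −0.74 for C1qb and −0.68 for C1qc, all past an unadjusted p under 0.05 by edgeR's quasi-likelihood test and none past the fold threshold. In that fit 16% of all genes had an unadjusted p under 0.05, and the adjusted p-values of the chains (edgeR) were 0.215, 0.261 and 0.285. Without control replicate 3 the log2 fold changes were −0.21 for C1qa, −0.47 for C1qb and −0.32 for C1qc, and without control replicate 2 the C1qb value was −0.26. The direction stayed below 0 for each of the 3 chains in all 15 alternatives run. The summed macrophage markers given above were lower in M-Δx3,4 BMDMs with Lyz2 and overlapped without it, and their part in the C1q values was not tested.

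The 3 C1q genes lie side by side within 18675 bases of chromosome 4. Their summed level was 4009, 7719 and 7987 normalised counts in controls and 4773, 5156 and 3967 with the deletion, so control replicate 1 fell within the M-Δx3,4 range. C1qa made up 24.7%, 35.3% and 38.0% of the C1q counts in controls and 32.4%, 39.2% and 30.5% with the deletion. C1qb took 25.6% to 33.3% in the control group and 28.7% to 30.7% in the M-Δx3,4 group. C1qc took 31.4% to 43.8% and 32.1% to 38.8%. The groups overlapped for each share. The ratio of C1qa to C1qc ran from 0.564 to 1.12 in the control group and from 0.788 to 1.22 in the M-Δx3,4 group. As a description over the 6 libraries, which share normalisation and span both groups, Pearson's r of the log2 levels was 0.885 between C1qa and C1qb, 0.812 between C1qa and C1qc and 0.854 between C1qb and C1qc.

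**Figure D2:**
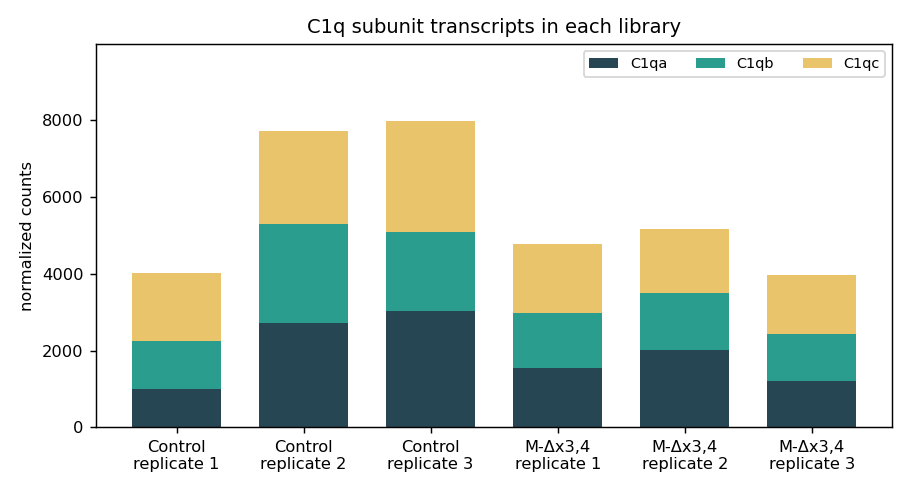
Stacked bars of the normalised counts of C1qa, C1qb and C1qc in each of the 6 libraries. Control replicate 1 sits with the M-Δx3,4 libraries at a sum of 4009, below control replicates 2 and 3 at 7719 and 7987.

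C3, the component on which all pathways converge, did not differ beyond the spread between replicates. C3 (ENSMUST00000177425; chr17:57203758-57204012, minus strand) had 169.7, 245.2 and 135.7 normalised counts in control BMDMs against 117.4, 189.4 and 99.3 in M-Δx3,4 BMDMs. Replicate 2 was the highest in each group, and the groups overlapped. Its log2 fold change was −0.44 ± 0.37 (SE), with a 95% interval of −1.24 to 0.36 (edgeR p = 0.256, adjusted p = 0.984; exact permutation p = 0.4). Without control replicate 3, the library with liver transcripts, it was −0.61. Control replicate 3 held the lowest C3 level of its group. Leaving out control replicate 2 gave −0.17 and leaving out M-Δx3,4 replicate 2 gave −0.76. The other C3 transcript with counts, whose listed end region contains this one, gave −0.46 and fewer counts, so the windows in which reads were counted were not exactly the listed ones.

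Cfb (ENSMUST00000133127; 6 segments within chr17:34856325-34857707, minus strand) had 1474, 1889 and 630.0 normalised counts across controls 1 to 3 and 915.6, 1035 and 946.8 across M-Δx3,4 1 to 3. The M-Δx3,4 libraries lay within a narrow range, while the control libraries lay on both sides of it. The group means were 1331 ± 642 and 966 ± 62.0 (SD, n = 3 each), and the control mean was 1681 without control replicate 3. The M-Δx3,4 over control log2 fold change was −0.46 ± 0.37 (SE), with a 95% interval of −1.25 to 0.32 (edgeR p = 0.228, adjusted p = 0.984; exact permutation p = 0.4). Without control replicate 3, which held both the liver transcripts and the lowest Cfb level, it was −0.79 with an unadjusted p under 0.05 (edgeR adjusted p = 1.00), in a fit in which 2.58% of genes had an unadjusted p under 0.05. Without control replicate 2 it was −0.12. Its level is a sum over 6 segments and exceeded that of the Cfb transcripts counted in 1 segment, such as ENSMUST00000154526 with a mean of 722 normalised counts against 1148 over the 6 libraries. The log2 fold changes of the single-segment transcripts were −0.44 to −0.45. The read-through gene Gm20547 overlaps Cfb and one of its transcripts carries identical counts to a Cfb transcript, so reads of the pair cannot be told apart. The Nelfe transcripts with most counts, on the opposite strand with listed regions that overlap those of Cfb, held 3 to 15 counts a library.

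The ratio of Cfb to C3 was 8.68, 7.70 and 4.64 in the controls, while M-Δx3,4 BMDMs had 7.80, 5.47 and 9.53. The groups overlapped here too. Cfb was summed over 6 segments of 659 listed bases and C3 over 1 of 255, so the ratio does not give the relative abundance of the mRNAs. Both genes are known to be induced by LPS in macrophages, and Pearson's r of their log2 levels over the 6 libraries was 0.706, as a description.

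Cfp, the gene of properdin, was close in both groups. Cfp (ENSMUST00000122862; chrX:20925402-20925650, minus strand) had 1535, 2493 and 1801 normalised counts in controls and 1740, 1942 and 1392 with the deletion. Control replicate 2 was the highest of the 6, and without it the log2 fold change turned from −0.20 to 0.020. The SE of the full value was 0.31 and its 95% interval was −0.85 to 0.45 (edgeR p = 0.524, adjusted p = 0.984; exact permutation p = 0.5). Over the 6 libraries Pearson's r of the log2 levels was 0.877 between Cfp and C1qb and 0.816 between Cfp and C3, as a description.

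**Figure D3:**
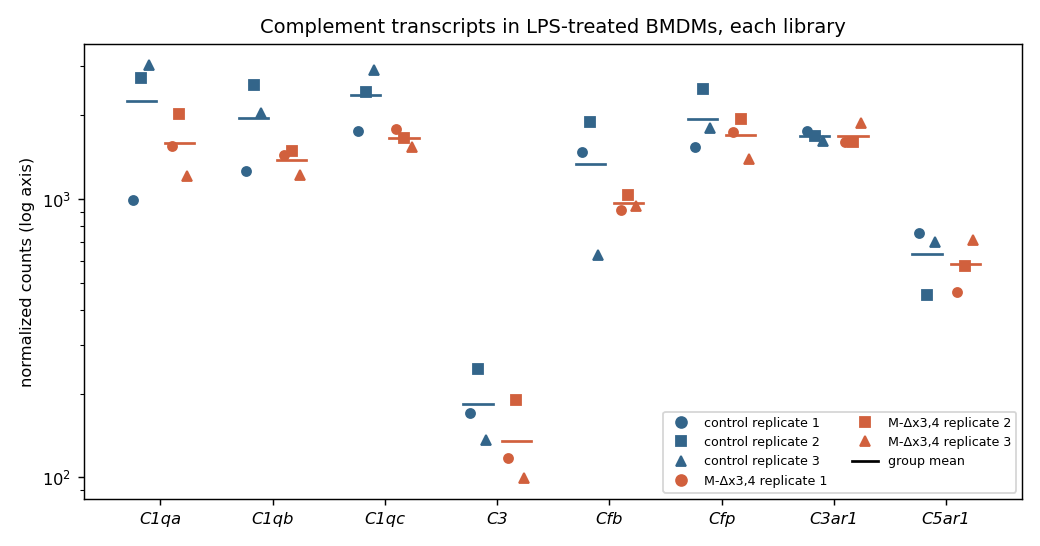
Normalised counts of 8 complement genes in each library on a log10 axis, with control and M-Δx3,4 libraries side by side and lines at the group means; Serping1 is not drawn. The groups overlap for every gene, and C3ar1 is the tightest, between 1599 and 1869.

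The anaphylatoxin receptors had fold changes nearest to 0. C3ar1 (ENSMUST00000042081; chr6:122846889-122849822, minus strand), the receptor of C3a, had 1755, 1682 and 1609 normalised counts in control BMDMs against 1599, 1601 and 1869 in M-Δx3,4 BMDMs. All 6 values lay close together, with means of 1682 ± 73.0 and 1690 ± 155 (SD, n = 3 each). On the log2 scale the fold change was 0.01 ± 0.28 (SE), with a 95% interval of −0.59 to 0.61 (edgeR p = 0.981, adjusted p = 0.999; exact permutation p = 1). C5ar1 (ENSMUST00000050770; chr7:16246494-16248037, minus strand), the receptor of C5a, had 753.2, 450.6 and 700.7 normalised counts across controls 1 to 3 and 463.6, 574.8 and 710.7 across M-Δx3,4 1 to 3. The lowest values of the groups were close, and so were their highest. Its log2 fold change was −0.12 ± 0.32 (SE), with a 95% interval of −0.81 to 0.57 (edgeR p = 0.712, adjusted p = 0.991; exact permutation p = 0.8). The sign of both receptors turned under some alternatives, between −0.073 and 0.043 for C3ar1 and between −0.32 and 0.021 for C5ar1 when single libraries were left out. As a description over the 6 libraries, C5ar1 had an r below 0 with the C1q chains, C3, Cfb and Cfp. These values ran from −0.13 with C1qc to −0.74 with Cfp. C3ar1 ran from −0.63 with C1qa to 0.50 with C5ar1. Of the 28 pairs among the 8 members without Serping1, 13 had an r below 0. The intervals still leave room for changes of about the size seen for the C1q chains.

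Serping1 (ENSMUST00000023994; chr2:84765138-84765573, minus strand) was at or near the counting floor of 3 counts. Its raw counts were 2, 0 and 8 in the controls, while M-Δx3,4 BMDMs had 3, 1 and 0. The only library clearly above the floor was control replicate 3, the one with liver transcripts, and Serping1 was not tested without it. No fold is given for this gene.

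Levels were also scaled per kilobase of listed region, which is not exactly the window counted and for Cfb includes segments without counts. Counts from 3′ ends fit this scale only roughly because reads pile up at the transcript's end. On it, Cfp had the highest level over the 6 libraries, at 7298 ± 1543 normalised counts (SD). That value rests on the listed region of 249 bases, and the other Cfp transcript, over 389 bases, gave 4381, close to the C1q chains. C1qc followed at 4121 ± 1100, C1qb at 4081 ± 1299 and C1qa at 3954 ± 1700, and these 3 did not differ beyond their spread. Cfb stood at 1743 ± 689, C3 at 625 ± 210, C3ar1 at 575 ± 37.0, C5ar1 at 394 ± 85.4 and Serping1 at 5.93 ± 8.01. The ranges of neighbours in this order overlapped except between C3ar1 and C5ar1 and between C5ar1 and Serping1. Compared within each library, Cfp by its 249-base region was above C1qc in all 6, and Cfb was above C3 in all 6. C1qa was above Cfb in 5 of the 6 libraries. C1qc was above C1qb in 4, C1qb above C1qa in 4 and C3 above C3ar1 in 3.

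AUF1 binds AU-rich elements, of which the pentamer ATTTA, written with T for U, is the core, so the annotated 3′ UTRs of the members were searched for it on the transcript strand, with each overlapping match counted. The UTRs come from GENCODE vM21 on GRCm38 (mm10), with 1 principal transcript a gene. None was found in C1qa (237 bases), C1qb (160), C3 (43), Cfb (43), Cfp (140) or Serping1 (187), while C1qc (239 bases) held 1. Among UTRs within 10% of the same length, the share with at least 1 ATTTA was 31.4% for the length of C1qa, 20.8% for C1qb, 31.9% for C1qc, 7.81% for C3 and Cfb, 23.2% for Cfp and 22.0% for Serping1. C3ar1 (2685 bases) held 4 and C5ar1 (1295 bases) held 3, at lengths where 95.5% and 82.6% of UTRs hold at least 1. The nonamer ATTTATTTA, which contains 2 overlapping pentamers, occurred in C5ar1 alone of the 9 and occurs in 5.98% of UTRs of that length. Over all 13443 genes with counts and a complete UTR, 67.0% held ATTTA and 5.99% held ATTTATTTA. The sites are printed below because they are the only places in these UTRs with this core motif, with the motif in capitals and all on the minus strand, written 5′ to 3′.
C1qc, chr4:136889861-136889885: tcctgtggccATTTAtcaatacctt
C3ar1, chr6:122849411-122849435: gaagatattcATTTAttgtacagtt
C3ar1, chr6:122848438-122848462: tccttctgatATTTAccatggtgtg
C3ar1, chr6:122848361-122848385: cttgattttgATTTActttacctac
C3ar1, chr6:122847306-122847330: gtgatacattATTTAttcagttgtc
C5ar1, chr7:16247322-16247346: caggaatggtATTTAatggaaccca
C5ar1, chr7:16247200-16247228: aaaagcacgtATTTATTTAttttgtgggg
The log2 fold changes were 0.01 for C3ar1, −0.12 for C5ar1 and −0.51 for C1qc, which hold the motif, and −0.50, −0.51, −0.44, −0.46 and −0.20 for C1qa, C1qb, C3, Cfb and Cfp, which do not. For C3, Cfb and Cfp these values come from another transcript than the one searched. The searched transcripts gave −0.46, −0.45 and −0.20. A match is a description of the letters and not a binding site, and reads at the 3′ end do not show which UTR length a cell used. The study also describes affinity of AUF1 for U-rich and GU-rich motifs, which were not searched for. A UTR without ATTTA is therefore not shown to lack sequence that AUF1 can bind.

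The other genes of the complement system numbered 50 in the lists used, of which 37 had counts and 21 passed the filter. Of these 21, 0 were called higher and 1 lower, against 3.07% of all genes called in either direction, and 2 (Vtn and Calr) had an unadjusted p under 0.05, against 3.98% of all genes. The called gene was Vtn (vitronectin, which blocks the membrane attack complex), with 15.1 normalised counts in control replicate 3 and none in any other library. Without that library 0 of the 17 then tested were called. Of the 21, Vtn, Hc, C8a and C8g had counts only in control replicate 3. Among the other 17 the M-Δx3,4 over control log2 fold change was below 0 for 11, against 50.5% of all genes, with a median of −0.16.

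Among the pathway genes with the highest mean levels, Itgam and Itgb2, the chains of complement receptor 3, had log2 fold changes of 0.41 and −0.16. Calr (calreticulin, a binding partner of C1q) had −0.70 with an unadjusted p just under 0.05 (edgeR adjusted p = 0.984), with control replicate 3 the highest library at 1889 normalised counts and an overlap between the groups. Cd93, once described as a C1q receptor, had 559.1, 482.2 and 587.0 normalised counts in controls and 337.5, 421.4 and 393.6 with the deletion. These did not overlap, and its log2 fold change was −0.50 (edgeR adjusted p = 0.984). Lrp1, C1qbp and the C1 protease gene C1ra had 0.06, 0.26 and −0.46, respectively. Csmd1, a membrane regulator, had 0.40, but its level was 75.5, 60.3 and 2.3 normalised counts in controls 1, 2 and 3, and without control replicate 3 the control mean of 67.9 exceeded the M-Δx3,4 mean of 60.8. The C1r-like protease gene C1rl, named after its values were seen, was the other gene without overlap, at −0.67 (edgeR adjusted p = 0.984) and at most 20.9 normalised counts. These 2 of 21 genes are 9.52%, near the 8.44% of all genes whose groups did not overlap.

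Complement genes that the liver makes were detected mostly in control replicate 3, the library with liver transcripts. Of 23 such genes, 17 were detected in control replicate 3, against 5 in each of controls 1 and 2 and 7, 3 and 4 with the deletion, and 11 had counts in control replicate 3 alone. The terminal components C8a, C8g and C9 and the C5 gene Hc had 8.1, 10.4, 3.5 and 7.0 normalised counts there and none in any other library. These are genes of the pore-forming end of the cascade, and a count of 0 allows up to 3 counts a library. C1ra was not among them, with 76.7, 35.8 and 31.3 normalised counts in control replicates 1, 2 and 3.

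**Figure D4:**
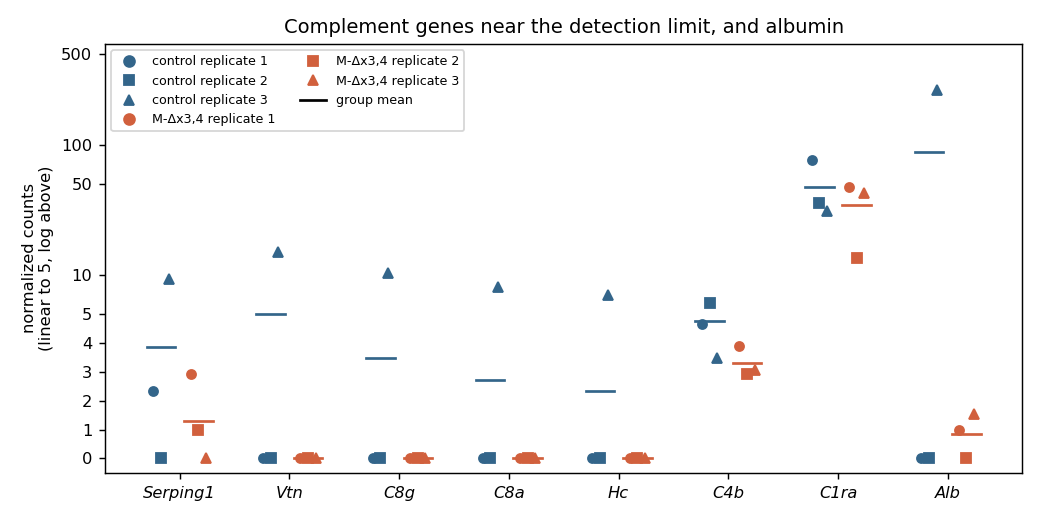
Normalised counts of Serping1, 6 other liver-made complement genes and albumin (Alb) in each library, on an axis that is linear up to 5 and logarithmic above, with lines at the group means. Control replicate 3 alone has counts of Vtn, C8g, C8a and Hc, at 7.0 to 15.1, and is highest for Serping1 and Alb, while C4b and C1ra have counts in every library.

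Among the genes whose levels followed C3 most closely over the 6 libraries, of 4715 with a mean above 50 normalised counts, were Calhm6 (Pearson's r = 0.988), Plrg1 (0.979), Gpn1 (0.974) and Sema4c (0.964). Among those closest to C1qb were Slc35c1 (0.995), Armcx6 (0.986), Dhdds (0.974) and Smox (0.970). With 6 points that share normalisation, 28 genes had an r above 0.9 with C3 and 59 with C1qb, so such values are common and are given only as a description.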

How the data were processed

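The libraries were QuantSeq forward 3′-end libraries read on an Ion Proton. Per the labels and the study's methods, the authors aligned reads to mm10 with TopHat2 2.1.1 and then Bowtie2, and counted them per region near transcript ends with metaseqR2 1.3.14. The deposited table holds raw counts for 177303 regions of 142567 transcripts; a second, normalized table with the authors' own comparisons (fold changes and p-values) was not used. Counts were summed per transcript and scaled with DESeq2-type (RLE) size factors, giving normalised counts. Transcripts were kept where the normalised count exceeded the median of 4.89 in at least 1 library. The groups were tested against each other by edgeR 4.0.16 (R 4.3.3; quasi-likelihood, no covariate), and p-values were adjusted over 32475 transcripts by the Benjamini-Hochberg method. The study combined several tests and its thresholds were kept. DESeq2 1.42.0, limma-voom (limma 3.58.1), TMM, library totals, other filters, 1 transcript per gene, a replicate block and leaving out each library were alternatives. Single members were also tested by exact permutation. The Poisson counting error at a member's lowest library was 2.57% (C1qc) to 9.25% (C3), apart from Serping1, and intervals cover the spread between samples.

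Named were all 9 members, every called pathway gene and the 8 pathway genes with the highest means, the 2 highest markers of a described list, and the 5 genes most like C3 and C1qb, of which 1 each is not reported here. The members and lists were chosen with earlier results of these data known. The script was tested on simulated data. The motif search read transcript sequences of GENCODE vM21.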

Additional observations from a re-analysis of the deposited data

How the results depend on the processing

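Under all 15 alternatives 0 members were called and 0 had an adjusted p under 0.05. Of 132 recomputed member fold changes, 122 kept their direction and side of the threshold, 4 passed an unadjusted p under 0.05 when a control library was left out (the C1q chains and Cfb), and 6 turned. C3ar1 was −0.021 with 1 transcript per gene and ran from −0.073 to 0.043 when single libraries were left out, C5ar1 from −0.32 to 0.021 and Cfp from −0.34 to 0.020. The count of other complement genes called was 1 as reported (Vtn). It was 0 with limma-voom, filterByExpr, at least 10 counts in every library and the replicate block. With no filter it was 4 (Hc, C8a, C8g and Vtn). When single libraries were left out it was 0 to 2. It was 0 without control replicate 3, M-Δx3,4 replicate 2 or M-Δx3,4 replicate 3. Without control replicate 1 or 2 it was 2 (C8g and Vtn). Without M-Δx3,4 replicate 1 it was 1, but the gene was C1s1 and not Vtn. C1s1 had 21 counts in that replicate and 0 in M-Δx3,4 replicates 2 and 3. The causes were not tested.

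Same-numbered libraries did not pair: the correlations of their deviations were −0.21, 0.54 and −0.31. The replicate block left 0 members called. Serping1 could not be tested without control replicate 3, nor with the stricter filters. The interval widths come from edgeR's dispersion, which borrows across transcripts, as well as from each gene's own spread.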

Other observations

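Marker lists of other cell types differed between libraries as follows. Of 8 B cell markers, led by Igkc and Ighm, 6 or 7 were detected in each library, with a summed level of 306.8 to 368.9 normalised counts in the control group and 151.5 to 170.2 in the M-Δx3,4 group, which did not overlap. Lyz2, named after its values were seen and the macrophage gene whose locus carries the Cre recombinase, had 1992, 1788 and 2201 normalised counts in controls against 1342, 881.7 and 968.2 with the deletion. Its log2 fold change was −0.91, with an unadjusted p under 0.05 (edgeR adjusted p = 0.984). Summed neutrophil markers were 388.2 to 695.0 and 482.2 to 728.3, and summed fibroblast markers were 13.9 to 48.8 and 2.91 to 36.2. Kidney markers had no counts, and intestine markers reached 1.16 normalised counts in a control library.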
